A study of Mus musculus with 6 samples.

Results

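The EGR and NR4A immediate early genes were examined in blood neutrophils of mice without phd3 and of wild-type mice after 4 h of hypoxia. The 10 genes were chosen by name as members of the EGR family (Egr1, Egr2 and Egr3), of the NR4A family (Nr4a1, Nr4a2 and Nr4a3) and of the IER and BTG groups of rapidly induced genes (Ier2, Ier3, Ier5 and Btg2). They were represented by 22 probe sets, and all 10 were among the 18193 genes named on the array. There were 3 phd3 null and 3 wild-type samples, both on a C57 background. Each was 1 mouse whose neutrophils were isolated by negative magnetic selection and kept at 3% oxygen, a condition that both groups shared. The phd3 gene, now named Egln3, encodes an oxygen-dependent prolyl hydroxylase. The labels used here do not give age or the deleted part of the gene, and neither genotype had normoxic samples analysed here. The question was whether these genes differed between the genotypes within hypoxia.

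Immediate early genes are transcribed within minutes of a stimulus without new protein synthesis. Kinase cascades reach them through transcription factors already bound at their promoters, such as serum response factor (SRF) at the CArG box and CREB at the cAMP response element (CRE), and their messages decay quickly. EGR proteins are zinc finger transcription factors, and NR4A proteins are orphan nuclear receptors whose activity follows their amount. In myeloid cells both families are induced by adhesion, by bacterial products and by cAMP, so they also respond to how cells are handled.

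The upstream sequences of some members hold elements on which such induction is known to act. Promoter entries from RefSeq (mouse build GRCm38.p6) were matched by symbol for 7 members, in 11 entries, and the 250 bases before each start were searched on both strands. The core of the CRE, TGACG, was found in all 3 NR4A genes, each with 4 copies, and in Egr2 and Btg2. It is present in 17.77% of the 32851 upstream windows in the table. Those sequences are printed here because this core was found in them, with 1 of the 3 Egr2 windows that hold it, while the windows of Ier3 and Ier5 held neither this core nor a CArG box. Capitals mark each CRE core in either orientation (TGACG or CGTCA) and, in Egr2, the CArG box.
Nr4a1 chr15:101266596-101266845, plus strand: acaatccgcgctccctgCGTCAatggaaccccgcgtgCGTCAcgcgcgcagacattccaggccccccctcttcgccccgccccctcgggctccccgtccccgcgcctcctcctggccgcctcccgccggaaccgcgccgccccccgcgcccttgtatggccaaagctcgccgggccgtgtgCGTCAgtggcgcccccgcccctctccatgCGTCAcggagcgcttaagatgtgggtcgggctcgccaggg
Nr4a2 chr2:57124004-57124253, minus strand: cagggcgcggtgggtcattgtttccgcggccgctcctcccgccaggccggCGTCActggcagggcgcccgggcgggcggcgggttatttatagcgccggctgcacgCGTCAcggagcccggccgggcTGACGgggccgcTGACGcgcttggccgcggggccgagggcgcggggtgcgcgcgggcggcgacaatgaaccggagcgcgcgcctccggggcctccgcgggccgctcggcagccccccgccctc
Nr4a3 chr4:48045055-48045304, plus strand: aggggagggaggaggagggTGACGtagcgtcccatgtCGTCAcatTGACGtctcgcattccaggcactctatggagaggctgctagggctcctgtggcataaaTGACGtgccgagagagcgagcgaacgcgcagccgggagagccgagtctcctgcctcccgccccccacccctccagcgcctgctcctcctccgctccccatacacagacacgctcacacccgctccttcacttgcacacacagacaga
Egr2 chr10:67537619-67537868, plus strand: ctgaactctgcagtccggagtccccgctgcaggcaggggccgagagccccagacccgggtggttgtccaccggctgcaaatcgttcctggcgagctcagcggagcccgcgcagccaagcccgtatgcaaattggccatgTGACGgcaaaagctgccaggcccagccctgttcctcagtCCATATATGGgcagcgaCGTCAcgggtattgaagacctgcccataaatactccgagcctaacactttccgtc
Btg2 chr1:134079156-134079405, minus strand: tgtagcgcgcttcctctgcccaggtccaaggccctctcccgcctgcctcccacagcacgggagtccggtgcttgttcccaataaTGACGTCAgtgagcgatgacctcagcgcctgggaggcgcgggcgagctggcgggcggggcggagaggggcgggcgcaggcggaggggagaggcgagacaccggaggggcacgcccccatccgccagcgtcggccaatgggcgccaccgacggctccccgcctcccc

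Counting bases back from the start, the CRE cores began at -233, -213, -69 and -40 in Nr4a1, at -200, -144, -123 and -111 in Nr4a2, and at -231, -213, -205 and -147 in Nr4a3. Those of Egr2 began at -111 and -55, on either side of a CArG box from -72 to -63, an element that 1.47% of all windows hold. The Egr2 window shown is 1 of 5 in the table, of which 4 held a CArG box. The Egr2 windows with CRE cores overlap and hold the same cores and the same CArG box, and another window held a different box. Btg2 was the member with a whole CRE, TGACGTCA, from -166 to -159, which 1.55% of windows hold and which contains both of its cores. The EGR site GCGGGGGCG was found in Nr4a1 at -60 (2.57% of windows), the TATA motif TATAAA in Nr4a2 at -164 on the opposite strand (12.37%), and AAAGGTCA, the NR4A response element, in 0 of the 7 (1.34%). The core ACGTG of the hypoxia response element was present in Nr4a3, Ier3 and another Egr2 window (16.57% of windows). In Nr4a3 it began at -145 and overlapped the last CRE core. These are matches of letters and show neither binding nor its absence.

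The values are MAS5 signals, a brightness per probe set on a linear scale. The replicate 3 arrays were the least like the rest, with a median correlation of 0.740 for the phd3 null and 0.771 for the wild-type array, where the other 4 had 0.794 to 0.812. Of the neutrophil markers listed for this work, 8 of 10 were on the array and all 8 were above the filter on low values, with summed signals from 25241.2 to 49029.3 in phd3 null, against 42673.9 to 56509.3 in wild-type samples. Monocyte markers were also bright, with sums of 4463.1 to 17482 and 5270 to 16157.3, both lowest in replicate 3. Signal of NK cell markers summed to 389, 2713 and 2108.8 in phd3 null samples 1 to 3, against 1315.7, 5808 and 3088 in wild-type samples 1 to 3, a sum lower in phd3 null in every pair, and that of T cell markers to 164.3 to 468.8 and 115.4 to 366.6. Gzma made up most of the NK cell sums. Ncr1 was higher in phd3 null in pairs 1 and 3 (61 against 56.8 and 73.8 against 50), and the other NK cell markers were lower in every pair. Platelet sums were 218.8 to 447.6 and 243.3 to 358.9, red cell sums 588.8 to 6390 and 2375.9 to 5606.8, and eosinophil sums 98 to 218.4 and 86.2 to 184.8. Alas2 made up nearly all of the red cell sums. In such bulk samples, fewer cells of a type and less RNA per cell cannot be told apart. Egln3 signal, the check of the labels, was 87.2, 29.6 and 73.5 in phd3 null samples 1 to 3, against 2088, 1733.9 and 327 in wild-type samples 1 to 3.

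On the brightest probe set of each gene, all 10 members were lower on average in phd3 null than in wild-type neutrophils, where 50.6% of all 10960 genes tested were lower. The median log2 difference (phd3 null minus wild type) of the members was -0.37 on the log2(signal + 16) scale, and that of all genes tested was -0.0065. The largest differences were those of Nr4a3, Egr2, Egr3 and Egr1. None of these differences exceeded the spread between replicates. In limma over all genes tested, 0 of 10 members passed an adjusted p of 0.05 (adjusted p = 0.9996 for each), 0 had an unadjusted p under 0.05, and the groups overlapped for all 10. The same fit called 0% of all genes, gave an unadjusted p under 0.05 to 1.74%, and 6.92% of genes had groups that did not overlap. The deleted gene Egln3 (log2 difference -3.85) did not pass in this limma fit either (adjusted p = 0.9996). Not passing therefore says little about whether a member differed. All 10 members passed the filter on low values, which uses the mean over all arrays. The count of 10 rested on wild-type sample 1, without which 6 of 10 members were lower.

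**Figure D1:**
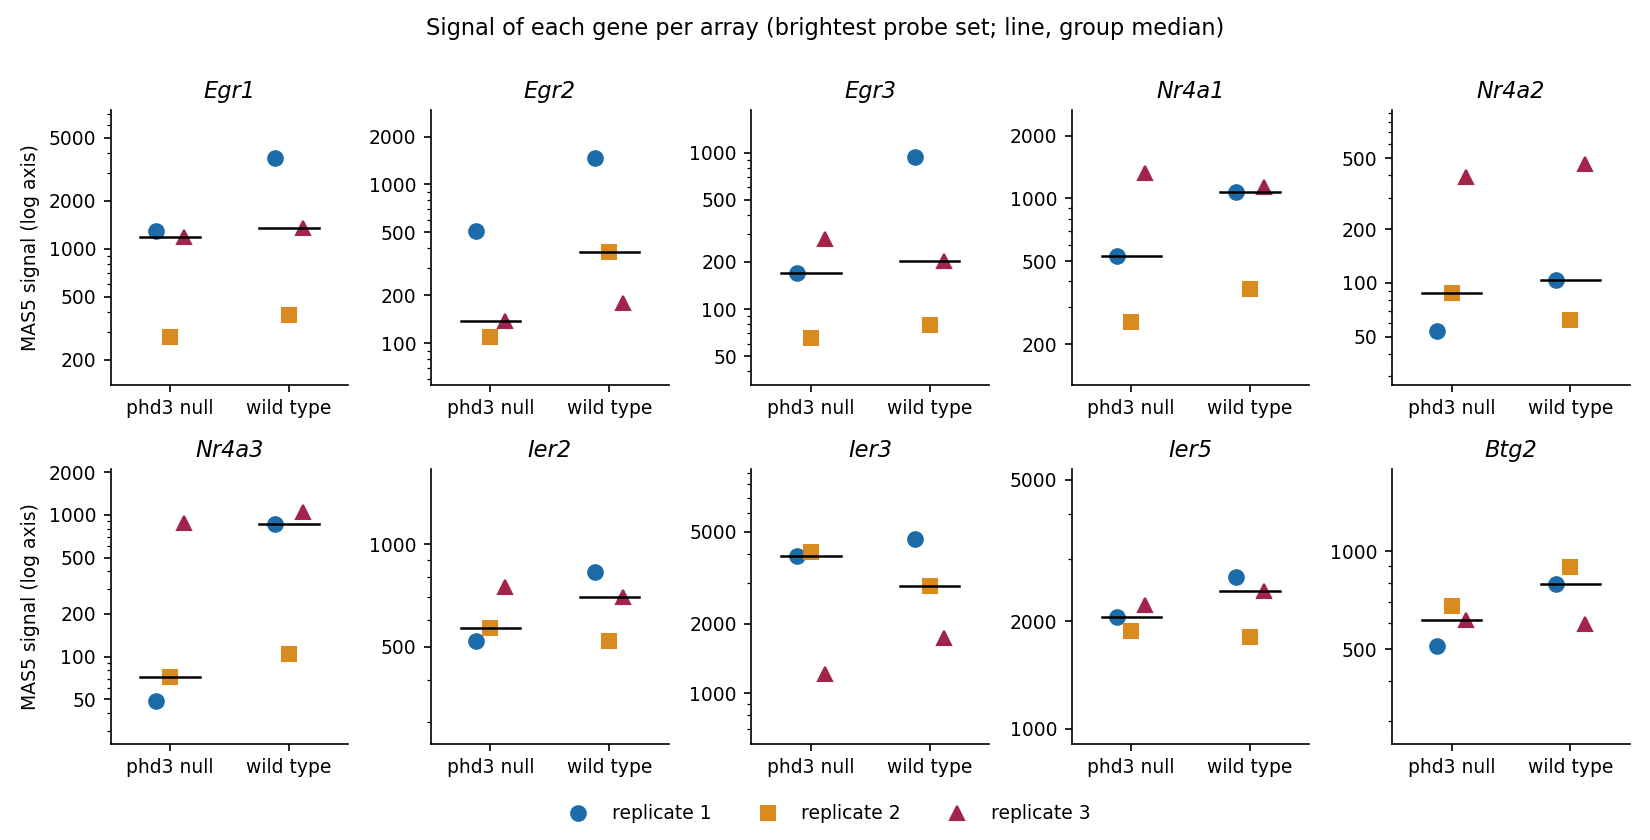
MAS5 signal (log axis) of the brightest probe set of each gene on the 6 arrays, with phd3 null on the left and wild type on the right of each panel, symbols for replicate numbers and a line at the group median. The groups overlap in all 10 panels, and the replicate numbers have the same order in both genotypes for Egr1 and Nr4a1.

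Egr1, a zinc finger factor induced through SRF and the ERK pathway, was read by 1 probe set. Its signal was 1295.4, 280 and 1186.9 in phd3 null samples 1 to 3, against 3706.5, 385.4 and 1340.5 in wild-type samples 1 to 3. Both samples of replicate 2 were low and wild-type sample 1 was the highest, so the groups overlapped. Mean signal was 921 ± 558 without phd3, against 1811 ± 1710 in wild type (SD, n = 3 each), a log2 difference of -0.71 (SE 0.80, 95% confidence interval -2.51 to 1.10). All 3 pairs had the lower Egr1 signal in the phd3 null sample, by log2 differences of -1.51, -0.44 and -0.17.

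Egr2, which in macrophages and T cells acts downstream of many of the same signals, had 2 probe sets. The brighter gave 511, 110 and 137.3 in phd3 null samples 1 to 3, against 1464.6, 375.8 and 178.8 in wild-type samples 1 to 3. Replicate 1 was the highest of its genotype in both groups, and each phd3 null sample lay below the wild-type sample of its number. Mean signal was 253 ± 224 without phd3, against 673 ± 693 in wild type (SD, n = 3 each), with a log2 difference of -1.16 (SE 0.75, 95% confidence interval -2.84 to 0.53). Within pairs 1 to 3 the log2 differences were -1.49, -1.64 and -0.35. The other probe set had the same order within every pair, at 596.2, 177.1 and 122.4 in phd3 null against 1069, 261.3 and 181.8 in wild type, and a smaller difference of -0.62 (SE 0.70).

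Egr3, the third EGR gene, is known as a target of calcium signalling in lymphocytes. Its brighter probe set gave 170.5, 65.7 and 281.4 in phd3 null samples 1 to 3, against 934, 79.3 and 202.5 in wild-type samples 1 to 3. Wild-type sample 1 was more than 3 times as bright as any other array. The log2 difference of -0.71 (SE 0.78) came with pair values of -2.35, -0.22 and 0.44, so pair 3 had the opposite sign. The second probe set did not share this order (19.5 to 99 in phd3 null and 27.6 to 94.7 in wild type) and gave a log2 difference of 0.24 (SE 0.63).

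Among the NR4A genes, Nr4a1 (Nur77), a nuclear receptor induced by antigen receptor, inflammatory and cAMP signals, had a single probe set. Its signal was 526.7, 256.4 and 1320.5 in phd3 null samples 1 to 3, against 1071.5, 366.3 and 1137.4 in wild-type samples 1 to 3. In both genotypes replicate 3 was the highest and replicate 2 the lowest. The log2 difference was -0.43 (SE 0.61, 95% confidence interval -1.80 to 0.95), just past 1 log2 unit lower in pair 1, with -0.49 in pair 2 and 0.21 in pair 3.

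Nr4a2 (Nurr1), which in macrophages is known to restrain inflammatory genes, had 6 probe sets, of which 5 were above the filter. The brightest gave 54, 88 and 389.7 in phd3 null samples 1 to 3, against 104.2, 62 and 463.1 in wild-type samples 1 to 3. Both replicate 3 arrays were well above the other 4, whatever the genotype, and the genotype difference was -0.20 on the log2 scale (SE 0.77). The same order was seen in 3 other probe sets, in which replicate 3 had the highest signals of each genotype (307.2 and 568.8, 357.7 and 317.7, and 174.8 and 263.6 for phd3 null and wild type). The fifth did not share it, with 72.4, 36.3 and 54.3 in phd3 null and 61.5, 68.4 and 15.1 in wild type. Over the 5 probe sets the log2 difference ran from -0.46 to 0.55, with 3 below and 2 above 0. The sixth was below the filter, at 3.4 to 5.8 in phd3 null and 3 to 37.5 in wild type.

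Nr4a3 (Nor1), the third nuclear receptor of the family, showed the widest range. Its bright probe set gave 48.6, 71.9 and 870.2 in phd3 null samples 1 to 3, against 866.9, 103.7 and 1045.9 in wild-type samples 1 to 3. Wild-type sample 1 was as bright as the replicate 3 arrays, while phd3 null sample 1 was the lowest of all. Mean signals of 330 ± 468 without phd3, against 672 ± 500 in wild type (SD, n = 3 each), corresponded to a log2 difference of -1.49 (SE 1.05, 95% confidence interval -3.85 to 0.86). By pair the log2 differences were -3.77, -0.45 and -0.26, so most of the fitted difference lay in pair 1. The other 2 probe sets of Nr4a3 were below the filter, at 4.1 to 36 in phd3 null and 16.1 to 55.6 in wild type.

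The IER genes varied less, apart from Ier3. Ier2, a nuclear protein gene induced by growth factors, had signals of 519.5, 569 and 746.3 in phd3 null samples 1 to 3, against 828.7, 519.5 and 698.5 in wild-type samples 1 to 3. This was a log2 difference of -0.15 (SE 0.32), below 0 in pair 1 alone. Ier5, which is known to act with heat shock factor 1, was at 2054.1, 1883.7 and 2218.3 in phd3 null against 2673.1, 1814 and 2428.4 in wild type, with a log2 difference of -0.15 (SE 0.32), and its 2 other probe sets gave -0.19 and -0.29. Both genes differed by less than the spread between replicates, with 95% confidence intervals of -0.87 to 0.58 for Ier2 and -0.87 to 0.56 for Ier5.

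Ier3 (IEX-1), a stress-inducible gene that affects survival of myeloid cells, was lowest in replicate 3 in both genotypes. It was at 3922.5, 4097.6 and 1208.4 in phd3 null samples 1 to 3, against 4643.9, 2916.8 and 1734.6 in wild-type samples 1 to 3. Both replicate 3 arrays were the lowest. Its log2 difference between genotypes was -0.090 (SE 0.55), and the sign turned with quantile normalization (0.068) and with array weights (0.17).

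Btg2, an antiproliferative gene whose product recruits the CCR4-NOT deadenylase, had 2 probe sets that disagreed. The first gave 511.1, 676.9 and 616.1 in phd3 null against 791.8, 894 and 598.2 in wild type (log2 difference -0.32, SE 0.31). The second gave 704.8, 661.1 and 897.8 against 877.1, 458.8 and 476.8 (0.36, SE 0.35). When probe sets were averaged, the log2 difference of Btg2 was 0.021. Across all members, 15 of 19 probe sets above the filter were lower in phd3 null and 4 were higher, those of Btg2, Egr3 and Nr4a2 named above.

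**Figure D2:**
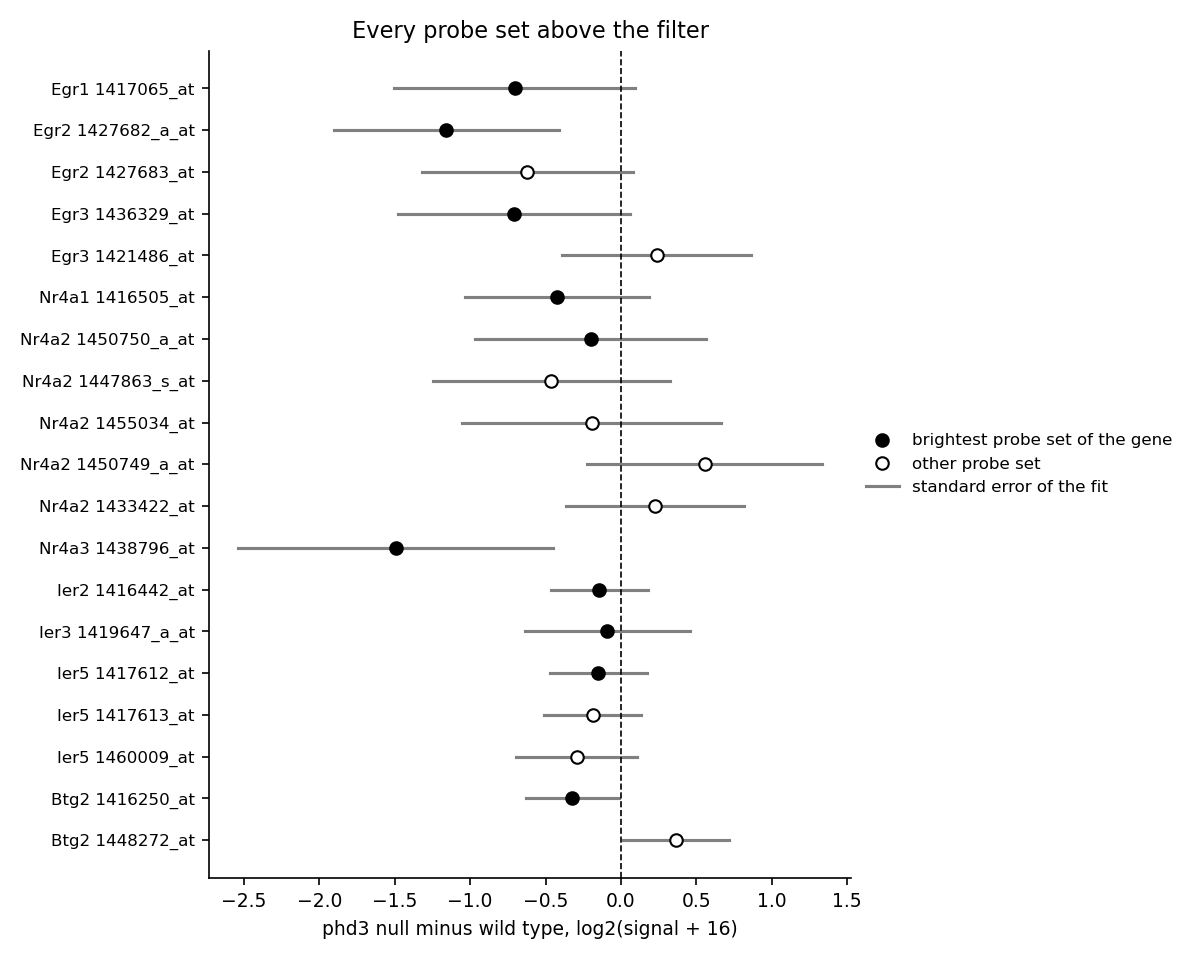
Log2 difference (phd3 null minus wild type, log2(signal + 16)) of each of the 19 probe sets above the filter, with the standard error of the limma fit as a line and the brightest probe set of each gene filled. The 4 points above 0 are all other probe sets of genes whose brightest probe set lies below 0.

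The genotype difference was concentrated in pair 1. Sample numbers run from 1 to 3 in both genotypes, and same-numbered samples share a code in their source labels. In pair 1 all 10 members were lower in phd3 null, with a median log2 difference of -0.89, and 5 of them (Egr1, Egr2, Egr3, Nr4a1 and Nr4a3) by more than 1 log2 unit. Of all genes tested 50.1% were lower in pair 1, and 8.82% by more than 1 log2 unit. In pair 2, 6 of 10 members were lower (median -0.31, with 50.4% of all genes lower), and in pair 3 again 6 of 10 (median -0.15, with 50.3%). Egr1, Egr2 and Nr4a3 were lower in 3 of 3 pairs, 3 of 10 members where 13% of all genes were. Wild-type sample 1 had the highest signal of the 6 arrays for 6 members, Egr1, Egr2, Egr3, Ier2, Ier3 and Ier5, and for 15.0% of all genes. In pair 1 the NK cell marker sum was 389 in phd3 null, against 1315.7 in wild type, with Ncr1 the other way (61 against 56.8). The red cell sum was 588.8, against 2375.9, nearly all of it Alas2 (565.4 against 2370.6). Hba-a1, the other red cell marker on the array, went the other way (23.4 against 5.3). The part of these transcripts in the members' pair 1 differences was not tested. Without wild-type sample 1 the log2 difference of Egr1 was 0.072 and that of Egr3 was 0.20.

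With the replicate number as a block, 0 of 10 members passed in limma (adjusted p from 0.397 for Egr2 to 0.982 for Ier3), where 0.0182% of all genes did. Unadjusted, 3 members had a p under 0.05 in the paired fit, Egr2, Nr4a3 and Egr1, against 5.62% of all genes. When the replicate 3 arrays were also left out, Egr2 (log2 difference -1.56, SE 0.30, adjusted p = 1.64e-04) and Nr4a3 (-2.11, SE 0.40, adjusted p = 1.80e-04) passed in limma, where 0.420% of all genes did. That fit had 4 arrays, and its standard errors rested almost wholly on a variance estimate shared across genes. Its p-values therefore do not measure the spread of each gene between mice. In pairs 1 and 2 the log2 differences were -1.49 and -1.64 for Egr2. For Nr4a3 they were -3.77 and -0.45, a wider gap than its standard error conveys. Without the block and without replicate 3, 0 members passed.

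**Figure D3:**
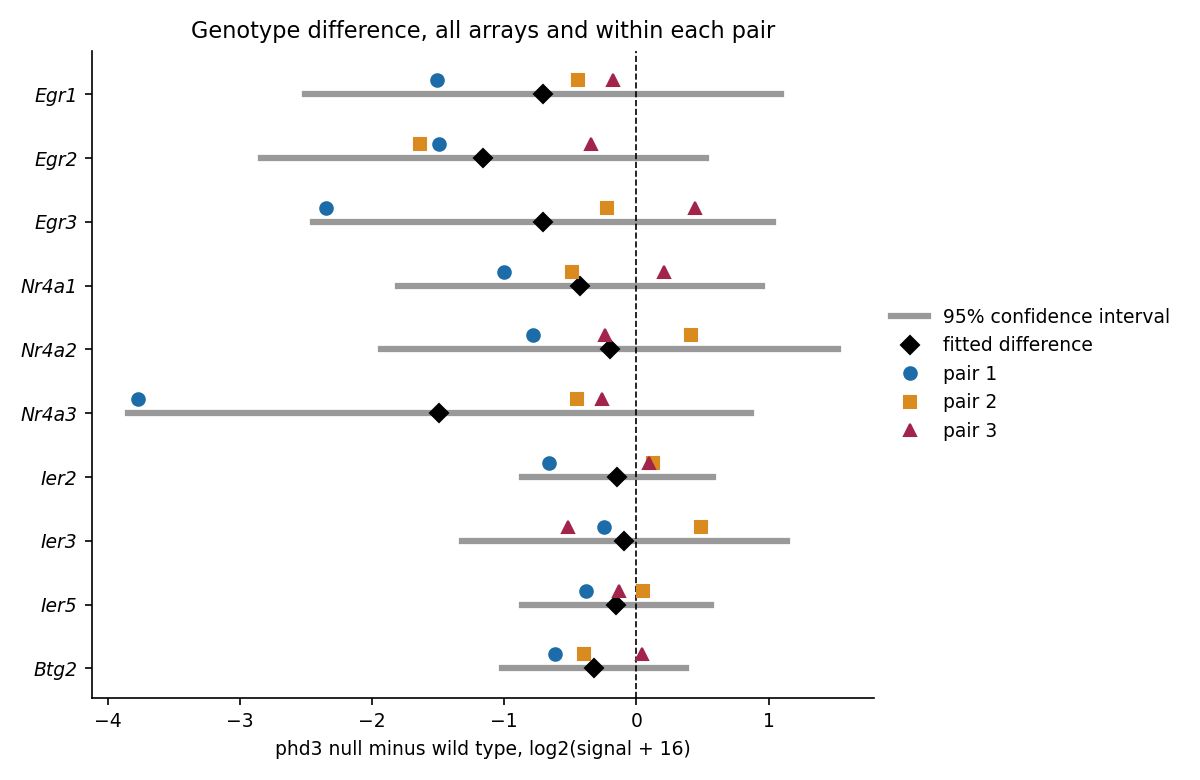
Log2 difference between phd3 null and wild type for each gene, with the fitted value of all 6 arrays as a diamond, its 95% confidence interval as a bar and the 3 same-numbered pairs as symbols. Every interval includes 0, and pair 1 lies below 0 for all 10 genes.

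More of the members' spread followed the replicate number than the genotype. In the paired fit, the replicate term (chosen for testing after the values were seen) passed an adjusted p of 0.05 in limma for 7 of 10 members, all 3 EGR genes, all 3 NR4A genes and Ier3, where 11.1% of all genes passed. Adjusted p-values ran from 7.77e-05 for Egr1 to 0.0159 for Egr3. Ier2, Ier5 and Btg2 did not pass (adjusted p = 0.652, 0.623 and 0.676). Replicate number held 85.9% of the sum of squares of log2 values for Egr1, 94.3% for Nr4a2 and 90.5% for Ier3, while genotype held 8.47%, 0.831% and 0.409%. The genotype share was larger for Btg2 (38.5%), Egr2 (22.5%) and Nr4a3 (18.6%). The median share of replicate number was 68.3% over the members and 53.1% over all genes tested. That of genotype was 8.84% and 8.94%. Replicate number splits the arrays into 3 sets and genotype into 2, so the shares are not on equal terms. These calls were lost when no trend in the prior variance was fitted, where 0 of all genes passed in limma and 7 members had an unadjusted p under 0.05. Without replicate 3, 4 members passed (Egr1, Egr2, Egr3 and Nr4a1), where 0.976% of all genes did.

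**Figure D4:**
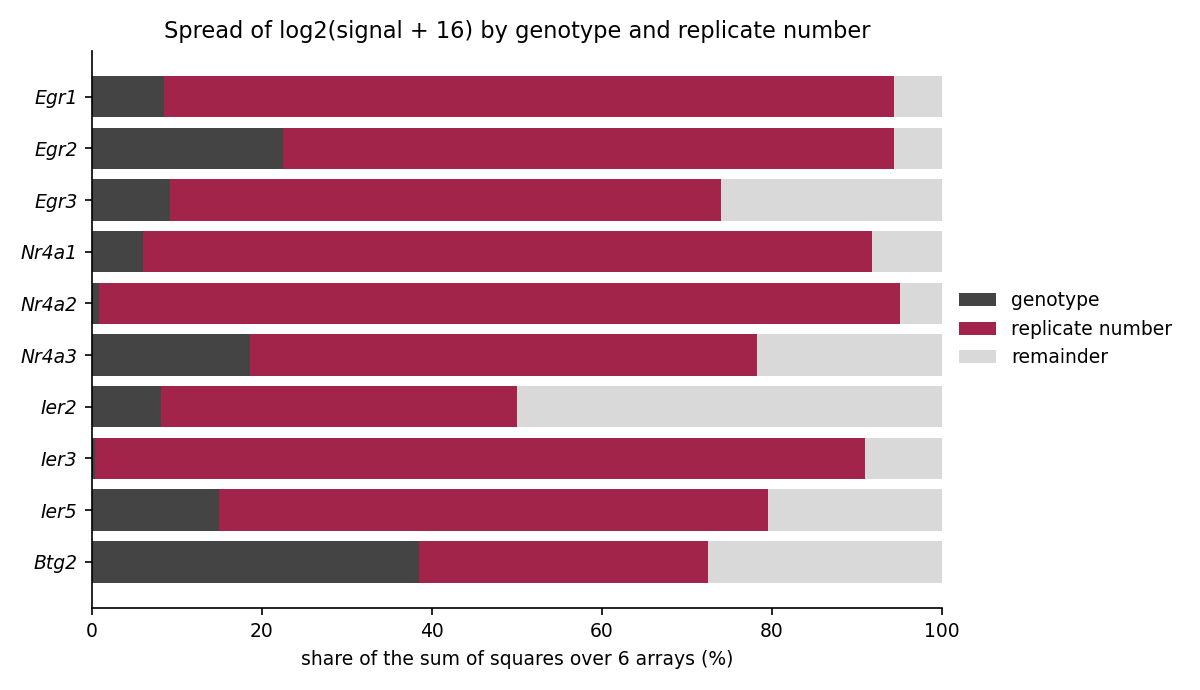
Share of each gene's sum of squares over 6 arrays (log2(signal + 16), in %) that lay between genotypes, between replicate numbers and in the remainder. The replicate number holds the largest share for 8 genes, and Ier2 (remainder) and Btg2 (genotype) are the exceptions.

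Both replicate 3 arrays lay above the other 4 for Nr4a1, Nr4a2 and Nr4a3, 3 of 10 members, where 18.5% of all genes had this order. The margin over wild-type sample 1 was small for Nr4a3 (870.2 against 866.9) and for Nr4a1 (1137.4 against 1071.5). Ier3 had both below the other 4, 1 of 10 members, where 16.9% of all genes did. Neither count was far from the share of all genes, so these orders were not particular to the members. Of 14 tested genes of the signalling upstream of immediate early genes, 3 had a replicate term past the threshold in the paired limma fit. They were named after their values were seen. Crem, a CRE-binding factor, was high in replicate 3, with 44.8, 103.4 and 1801.7 in phd3 null samples 1 to 3, against 156.7, 104 and 857.1 in wild-type samples 1 to 3. The kinase genes Map2k1 (673.4 in phd3 null and 637.4 in wild type) and Mapkapk2 (469.8 and 504.2) were lowest in replicate 3. A link of these values to the CRE cores was not tested. The heat shock genes listed as signs of stress during handling summed to 12619.9 in phd3 null and 12561.1 in wild type of replicate 3, against 3721.4 to 5396.1 on the other arrays, and 5 of 6 (all but Hspb1) were above the rest in both. B cell marker signal summed to 2902.2 and 2203.1 in these 2 arrays, against 205.7 to 473.6 elsewhere, with 4 of 5 markers above the rest in both. Of 5 T cell markers on the array 3 were above the rest in both, Cd3d, Cd3g and Cd4. Cd4 was below the filter (10.4 to 24.2), and Cd3g was at 78.7 and 76.8 in replicate 3, against up to 58.4. Eosinophil markers had 2 of 3 above the rest in both (Prg2, and Epx, which was below the filter). No NK cell, platelet, red cell, monocyte or neutrophil marker was above the rest in both. The part of these transcripts in the members' differences between replicates was not tested.

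**Figure D5:**
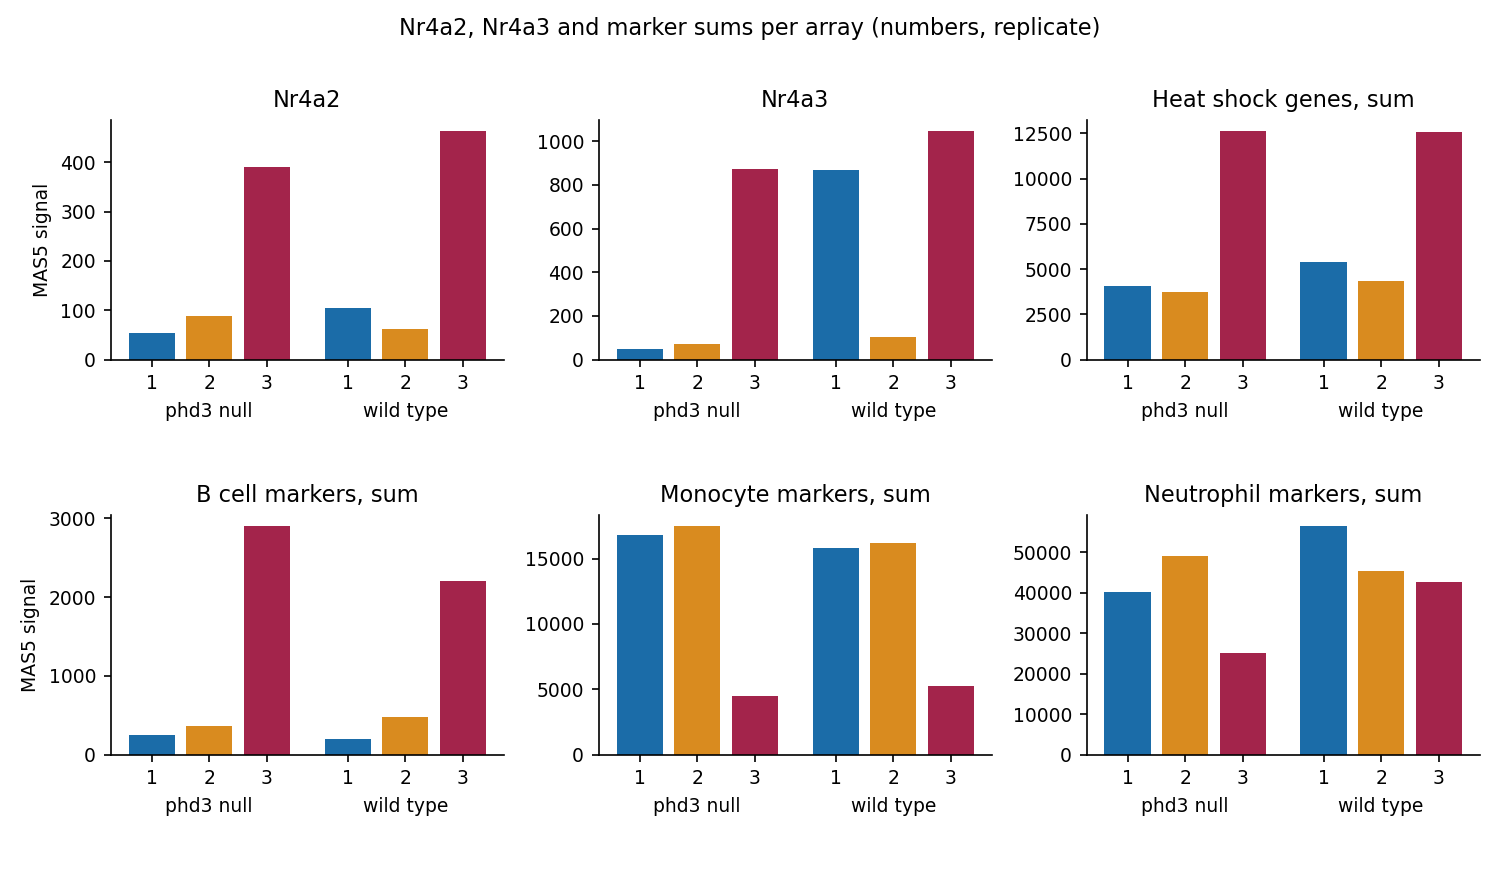
MAS5 signal of Nr4a2 and Nr4a3 (brightest probe set) and summed signal of 4 marker lists on each array, with phd3 null samples 1 to 3 on the left and wild-type samples 1 to 3 on the right of each panel. Heat shock and B cell sums are high and monocyte sums low in both replicate 3 arrays, where Nr4a2 is also high.

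Genes around the EGR and NR4A pathway were described as lists. Of 29 other immediate early genes tested, 21 were lower and 8 higher in phd3 null, with a median log2 difference of -0.20 and pair medians of -0.43, 0.11 and -0.13. All 3 pairs were lower in 8 of the 29, a larger share than the 13% of all genes. None passed in limma, with or without the block. An unadjusted p under 0.05 was found for 1 (Dusp1) without the block, where 1.74% of all genes had one, and for 6 with it (Dusp1, Plk2, Plk3, Dusp5, Ptgs2 and Dusp2), where 5.62% of all genes did. The members of smallest p were the MAP kinase phosphatase genes Dusp1 and Dusp5 (-0.90, SE 0.37, and -1.08, SE 0.50) and the polo-like kinase genes Plk3 and Plk2 (-1.37, SE 0.81, and -1.07, SE 0.64). Plk2, like Egr2, was lower in every pair and highest in replicate 1, at 366.7, 145.2 and 89.3 in phd3 null samples 1 to 3 against 1020.5, 223.3 and 226.1 in wild-type samples 1 to 3.

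Genes of the signalling that leads to these promoters did not lean one way. Of 14 tested, 7 were lower and 7 higher in phd3 null, with a median log2 difference of -0.0051 and 0 called in limma by either fit. Srf itself differed by -0.66 (SE 0.38), with signals of 110.5, 54.3 and 53.3 in phd3 null samples 1 to 3 against 96.2, 121.1 and 143.2 in wild-type samples 1 to 3. Rps6ka3, the ERK-activated kinase RSK2, differed by 0.31 (SE 0.34), the SRF cofactor Mrtfb by 0.27 (SE 0.39) and the SRF partner Elk3 by -0.19 (SE 0.31). Corepressors and relatives had 3 of 7 lower (median 0.026). Among them Nab2, an EGR target that represses EGR proteins in a feedback loop, differed by 0.35 (SE 0.40), its paralog Nab1 by -0.20 (SE 0.40), and the NR4A partners Rxra and Rxrb by 0.45 (SE 0.82) and 0.53 (SE 0.36).

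Candidate targets of EGR and NR4A proteins numbered 13 tested genes, 9 lower and 4 higher (median log2 difference -0.098). These counts and the median include the deleted gene Egln3, the check of the labels. Egln3 was the member called with the block in limma (log2 difference -3.85, adjusted p = 0.00140, against 0.9996 without the block). Its call follows from the deletion and says nothing of EGR or NR4A targets. The next by p were the death ligand gene Fasl (-1.01, SE 0.60), the BH3-only gene Bcl2l11 (-0.40, SE 0.34) and Il1b, encoding interleukin-1 beta (-0.59, SE 0.64), none of which passed. The interleukin gene had 10248.2, 8824.4 and 2185.9 in phd3 null samples 1 to 3 against 14854.5, 9347 and 4892.9 in wild-type samples 1 to 3, low in replicate 3 like Ier3.

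The genes whose pattern was most like the mean of the members were found by the root mean square difference of centred log2 values over the 6 arrays. The nearest of 10950 other genes were Flvcr1, a heme exporter gene (0.14), Zfp931 (0.19), Gm32031 (0.22), Dennd4a, encoding a guanine nucleotide exchange factor for a Rab protein (0.22), and Gnb3, a G protein beta subunit gene (0.23), where the median of all genes was 0.76. Flvcr1 had 295.6, 195.9 and 360 in phd3 null samples 1 to 3, against 559.4, 227.1 and 454.2 in wild-type samples 1 to 3. By the same measure Ier2 (0.38), Ier5 (0.41) and Nr4a1 (0.44) lay nearest to the members' mean and Nr4a3 (1.26) and Egr2 (1.03) farthest, so many other genes were closer to the mean than most members were.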

How the data were processed

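Total RNA of 6 samples was labelled with biotin and hybridised to Affymetrix arrays, per the labels' protocols. The deposited intensity values were made with MAS5, per the submitters' processing notes (version not given in the sources used here), and are linear. Each array had a 2% trimmed mean of 100. No detection calls were used, and the number of arrays limits the precision. Of 45101 probe sets, 64 controls were left out, and 34945 had 1 gene symbol, 932 several and 9160 none. Of the named genes, 18032 of 18193 matched the RefSeq table of GRCm38.p6 by gene ID.

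Each gene was represented by the probe set of highest mean log2(signal + 16). The 10960 genes whose mean reached 5.90, the median over probe sets that are not controls, were tested. Genotypes were compared by limma 3.58.1 (R 4.3.3), using lmFit and a two-sided eBayes test whose prior variance followed a trend, without a block, with Benjamini-Hochberg adjustment over all genes tested. Differences understate changes of dim genes. The code was tested on simulated data. Same-numbered samples share a source code, and their deviations from the genotype means had correlations of 0.292, 0.151 and 0.474 across genes. On this basis the numbers were treated as pairs. Phd3 null sample 2 correlated slightly more with wild-type sample 1 (0.177). The members, the lists and the rule for named genes (up to 4 genes of smallest p per list, and the 5 genes of most similar pattern) were chosen with earlier results of these data known. Alternatives changed the block, pseudocount, normalization, filter, probe sets, prior variance, array weights and samples. The count of members lower and the replicate term were added after the data were seen. P-values rest on the spread between these mice, moderated towards a variance shared across genes. In the fit with the block and without replicate 3 they rest almost wholly on that shared variance.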

Additional observations from a re-analysis of the deposited data

How the results depend on the processing

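No member was called under any alternative without the replicate block, and 2 were called with the block and without replicate 3. The count of genes called over the whole array was 0, and with the replicate block it was 2, also 2 with the block and a pseudocount of 1 or every probe set, 4 with the block and a pseudocount of 64, 1 with the block and quantile normalization, and 46 with the block and without replicate 3. Leaving out arrays or pairs without the block gave 0 to 1 genes, a median of the members from -0.93 (without phd3 null sample 3) to -0.088 (without pair 1), and 6 to 10 members lower. In these settings the log2 difference ran from -1.53 to 0.072 for Egr1, -1.46 to 0.20 for Egr3, -1.03 to 0.12 for Nr4a1, -0.95 to 0.57 for Nr4a2, -0.32 to 0.11 for Ier2 and -0.45 to 0.48 for Ier3. It stayed below 0 for Egr2 (-1.81 to -0.35), Nr4a3 (-2.68 to -0.35), Ier5 (-0.31 to -0.036) and Btg2 (-0.50 to -0.18). The sign of Ier3 also turned with quantile normalization (0.068, with or without the block), array weights (0.17) and the block without replicate 3 (0.12), and that of Btg2 with the mean of probe sets (0.021). The replicate term was called for 7 members, for 0 with no trend in the prior variance, and for 4 to 6 when a pair was left out, the 4 being without replicate 3. With 3 mice a genotype and no detection calls, differences within the reported intervals were not excluded. The causes of these shifts were not tested.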

Other observations

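Other listed genes also had both replicate 3 arrays above or below the other 4, as 18.5% and 16.9% of all genes did. They are named here after their values were seen. Klf4, a transcription factor of the myeloid lineage, was at 156.4, 202.1 and 736.9 in phd3 null samples 1 to 3 and at 232.1, 109.8 and 763.8 in wild-type samples 1 to 3. Tob1 and Tob2, antiproliferative relatives of Btg2, were at 1749.8 and 2077.8 in phd3 null sample 3 and at 2476.2 and 1834.4 in wild-type sample 3, against 475.6 to 804.9 for Tob1 and 518.7 to 652.7 for Tob2 on the other arrays. Ptgs2, the inducible cyclooxygenase gene, was low in replicate 3, with 1950.4, 1216.8 and 234.2 in phd3 null and 3431.2, 1209 and 503.5 in wild type, and Tnf had 936.1, 598.4 and 149.3 against 971.7, 388.8 and 254.7. Of the 29 other immediate early genes tested, 12 had a replicate term past the threshold in the paired limma fit, a larger share than the 11.1% of all genes.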
